A study of Mus musculus with 23 samples.

Results

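Wnt signalling was followed through 50 genes of mouse lung, of 24411 in the deposited tables: every row whose symbol names a Wnt ligand (19 genes), a Frizzled receptor (10), an Lrp5 or Lrp6 co-receptor (2), an R-spondin (4), an R-spondin receptor of the Lgr family (3), a secreted inhibitor of the Dkk and Sfrp families with Wif1 and Notum (10), or Axin2 and Lef1 (2). The members were matched by name alone, but the name rule was set with earlier results of these data known. Bulk RNA sequencing of 23 libraries compared wild-type (WT) lungs with lungs lacking Rarres1, a retinoid-responsive gene, on a C57BL/6 background without treatment. Lungs were taken at embryonic day 19.5 (3 WT, 3 knockout, KO), from males at 10 months (3 WT, 3 KO) and from males at 18 months (3 WT, 5 KO), and 3 lung tumours of KO males at 18 months were sequenced as well. The 5 KO lungs at 18 months have normal in their titles and non-tumour as their pathology. Tumours 1, 3 and 6 share the number in their sample codes with KO lungs 1, 3 and 6 and are paired with them by that code. The title of the lung coded 6 numbers it 4, so that pair rests on the code alone. No WT tumour is among the libraries, so each tumour carries the Rarres1 knockout too. The labels give no sex for the embryos, and the sources used here do not state how the allele was made or which cells it reaches.

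Wnt proteins are secreted, lipid-modified ligands that bind Frizzled receptors together with Lrp5 or Lrp6. In the branch that acts through beta-catenin, receptor binding stops the destruction of beta-catenin, which then joins TCF/LEF factors such as Lef1 on target genes, and Axin2 is a widely used target that feeds back as a negative regulator. R-spondins strengthen the signal by binding Lgr4, Lgr5 or Lgr6 and removing the ligases that clear Frizzled receptors, whereas Dkk, Sfrp and Wif1 proteins and the enzyme Notum restrain it outside the cell. In the lung, Wnt2 and Wnt2b of the mesenchyme are needed for the early lung bud, Wnt7b of the epithelium drives growth of the embryonic lung, and Wnt5a acts largely without beta-catenin in shaping the distal airways.

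Each library held 23661181 to 46566642 counts. Rarres1 had 24 to 64 counts in each WT library and 0 or 1 in each KO library and tumour, as the labels state. Summed marker genes of alveolar type 1 cells (3261 to 7398 CPM, counts scaled to library size) and alveolar type 2 cells (18576 to 106285 CPM) were present in every library. Several libraries stood apart from their groups. WT embryo 3 held basal and squamous epithelial markers at 1076 CPM summed, against 33.2 to 75.2 CPM in the other 5 embryos. Tumour 6 held endothelial markers at 4212 CPM, within the 3131 to 4876 CPM of the KO lungs, against 1322 and 1348 CPM in tumours 1 and 3. Tumour 1 held macrophage markers at 12727 CPM, against 2199 and 2150 CPM in tumours 3 and 6. Heart muscle markers varied from 89.8 to 1357 CPM among the 6 lungs of 10 months and were highest in WT lung 1. The titles number the embryos and males within each group. In bulk tissue, fewer cells of a type and less RNA per cell cannot be told apart.

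All 50 members had at least 1 read somewhere and 38 had reads in all 23 libraries. In each comparison, genes with too few counts were removed before testing: 37 members passed in all 9 comparisons of 2 groups, 5 passed in some (Fzd9, Fzd10, Rspo2, Wnt6 and Wnt9b) and 8 in none (Wnt1, Wnt3, Wnt8a, Wnt8b, Wnt10a, Wnt16, Dkk1 and Dkk4). Fzd9, Fzd10, Rspo2 and Wnt9b passed only in the fits that held embryonic lungs, where they were highest, so only a member that differed between stages could pass in this way. In the plot of all members by library, levels are given as FPKM, fragments scaled to gene length and library size, the scale on which genes can be compared with each other.

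**Figure D1:**
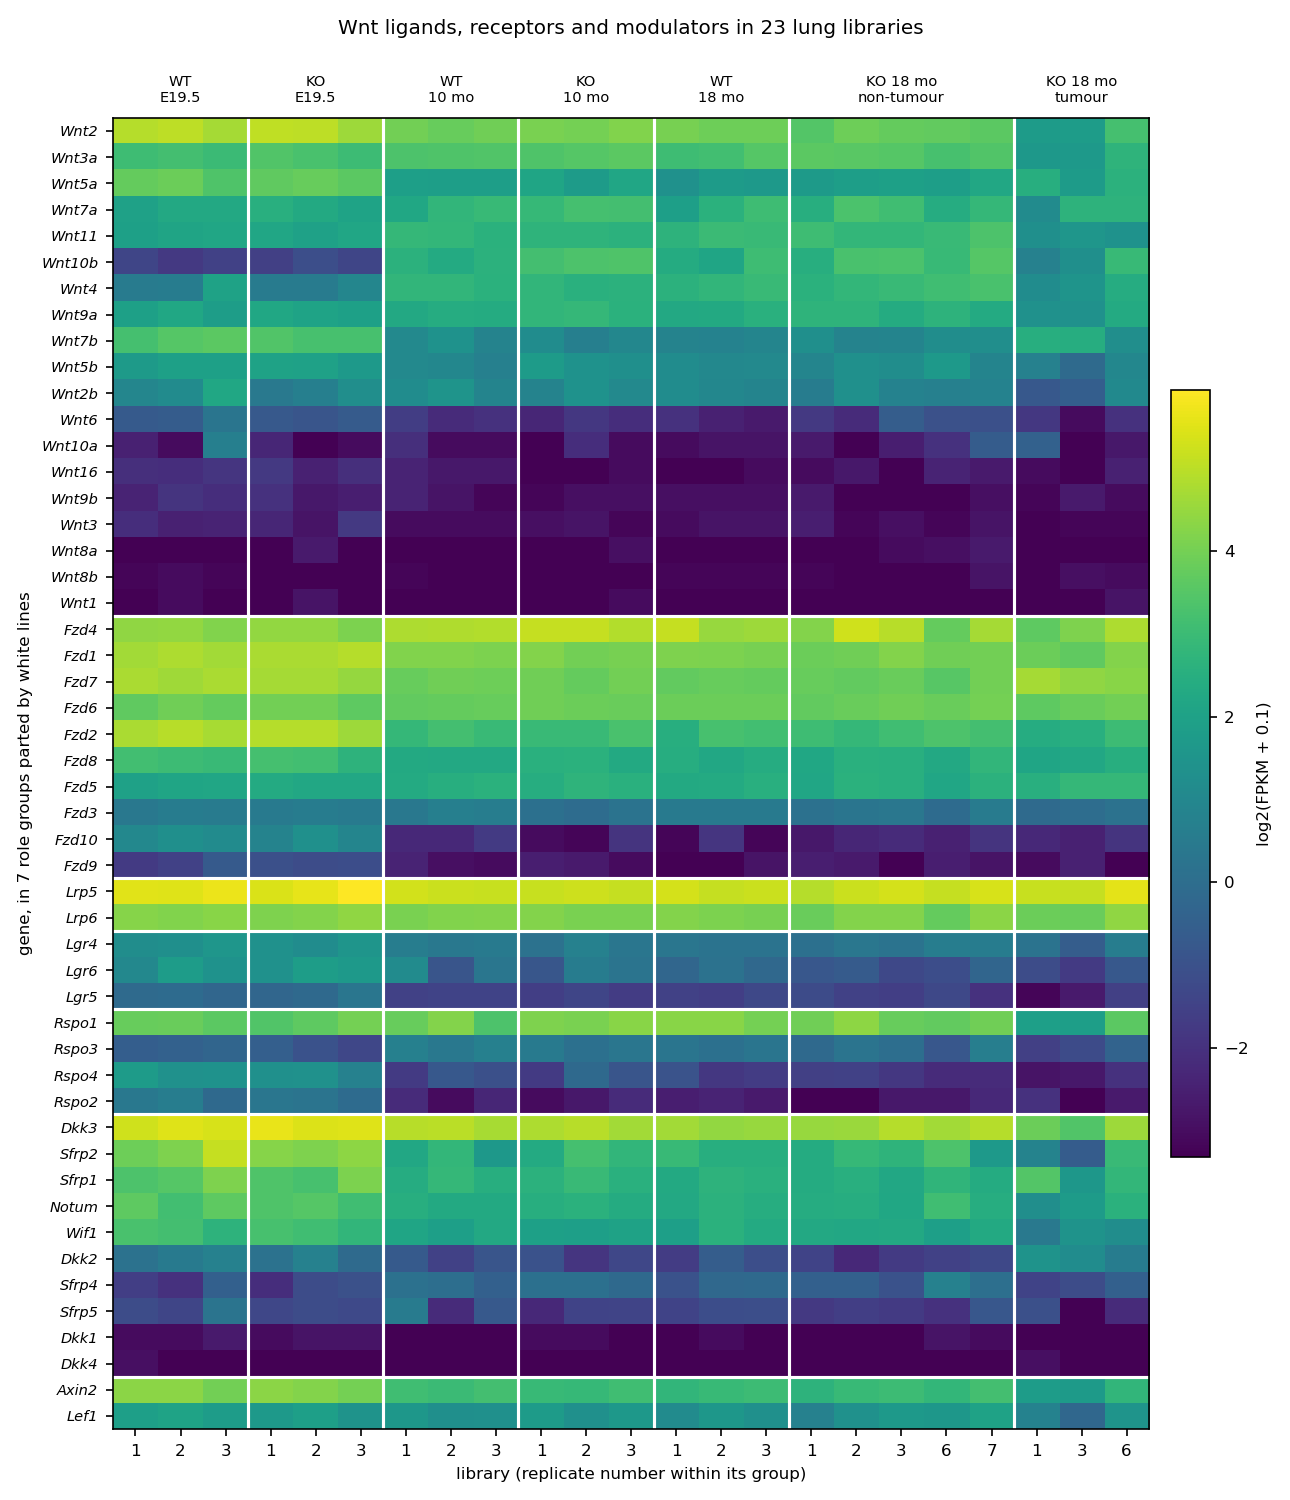
Level of each of the 50 members (rows, in 7 blocks from the top: Wnt ligands, Frizzled receptors, Lrp co-receptors, Lgr receptors, R-spondins, secreted inhibitors, and Axin2 with Lef1) in 23 libraries (columns by group), as log2(FPKM + 0.1). Wnt2, Wnt5a, Wnt7b and Fzd2 are brightest in the embryonic columns, Wnt10b is dark in them and bright in adult lung, and Dkk2 brightens in the tumour columns.

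Among the ligands, Wnt2 was the most abundant in embryonic lung, at 29.6 ± 3.5 FPKM in WT and 30.0 ± 5.3 in KO (SD, n = 3 each). It was followed at a distance by Wnt5a (12.8 ± 2.2 FPKM in WT), Wnt7b (10.8 ± 1.4) and Wnt3a (8.37 ± 0.49). Wnt5a and Wnt7b lay within 1 SD of each other. In WT lung at 10 months Wnt2 (14.8 ± 1.1 FPKM) was still first, Wnt3a (10.4 ± 0.26) second, and Wnt11 (6.65 ± 0.67), Wnt4 (6.48 ± 0.50), Wnt7a (6.26 ± 1.6), Wnt10b (5.74 ± 0.71) and Wnt9a (5.06 ± 0.31) formed a group in which neighbours did not differ beyond their SD, with Wnt5a (3.58 ± 0.060) and Wnt7b (2.07 ± 0.45) below it. In KO lung at 10 months, Wnt10b, at 9.77 ± 0.79 FPKM, ranked after Wnt2 (17.1 ± 1.1) and Wnt3a (11.3 ± 0.87).

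Among the receptors, Fzd2 (28.1 ± 2.5 FPKM), Fzd7 (26.5 ± 1.5), Fzd1 (26.2 ± 1.5) and Fzd4 (20.2 ± 2.0) led in WT embryos, and the first 3 of these lay within 1 SD of Fzd2. At 10 months Fzd4, the Frizzled receptor of endothelial Norrin signalling, led alone in WT lung at 28.4 ± 0.66 FPKM. Lrp5 exceeded Lrp6 in every group, with 47.7 ± 3.2 against 18.9 ± 0.58 FPKM in WT embryos and 37.4 ± 1.8 against 17.8 ± 0.88 at 10 months. Of the R-spondins, Rspo1 was the most abundant in all 7 groups, at 13.4 ± 1.1 FPKM in WT embryos and 18.4 ± 2.2 in WT lung at 18 months. The next R-spondin in WT embryos was Rspo4, at 2.78 ± 0.49 FPKM. Dkk3, an atypical member of the Dickkopf family, was the leading secreted modulator, at 41.7 ± 3.2 FPKM in WT embryos and 29.5 ± 2.5 at 10 months.

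The sequences before the annotated starts of 4 members are shown because the clearest differences turn on them: Wnt10b for maturation and genotype, and Dkk2, Wnt11 and Fzd7 for the tumours. They are from RefSeq (GRCm38.p6), on the gene's own strand from 5′ to 3′, and end where the gene's annotated span begins: chr15:98778207-98778400 on the minus strand for Wnt10b, and chr3:132085042-132085265, chr7:98834862-98835083 and chr1:59481897-59482146 on the plus strand for the others. Capitals mark a match to the TCF/LEF consensus, searched on both strands in its 4 spellings. The first was CTTTGAA. The next spelling in the search was CTTTGAT. Another spelling that was searched read CTTTGTA. The last spelling searched was CTTTGTT.
Wnt10b: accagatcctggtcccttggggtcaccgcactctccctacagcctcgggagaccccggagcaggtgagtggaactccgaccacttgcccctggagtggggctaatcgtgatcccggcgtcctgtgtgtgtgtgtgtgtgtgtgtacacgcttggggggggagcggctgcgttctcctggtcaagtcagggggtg
Dkk2: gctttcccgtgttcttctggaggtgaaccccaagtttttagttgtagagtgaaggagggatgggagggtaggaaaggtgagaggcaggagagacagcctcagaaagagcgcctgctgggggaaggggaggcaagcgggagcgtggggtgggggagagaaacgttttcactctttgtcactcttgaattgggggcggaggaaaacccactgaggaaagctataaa
Wnt11: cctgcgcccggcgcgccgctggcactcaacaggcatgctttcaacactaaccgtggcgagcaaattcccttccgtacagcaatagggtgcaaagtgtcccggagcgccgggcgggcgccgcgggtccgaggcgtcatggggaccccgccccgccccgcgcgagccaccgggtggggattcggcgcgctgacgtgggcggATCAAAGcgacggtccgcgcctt
Fzd7: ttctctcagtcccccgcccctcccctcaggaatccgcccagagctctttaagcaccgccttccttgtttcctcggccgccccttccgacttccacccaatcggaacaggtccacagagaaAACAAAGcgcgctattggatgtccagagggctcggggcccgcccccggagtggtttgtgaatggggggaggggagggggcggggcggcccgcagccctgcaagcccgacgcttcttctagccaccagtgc
Wnt11 holds 1 match, 23 bases before the span, and Fzd7 holds 1, 130 bases before it, both on the opposite strand. In the 250 bases before each start, 14.837% of all 32851 promoter entries held a match, and so did 5 of 38 entries of the 32 members with an entry (13.158%). Wnt10b and Dkk2 hold no match in the window shown. The genes themselves lie at chr15:98770712-98778206 (Wnt10b), chr3:132085266-132180304 (Dkk2), chr7:98835084-98854747 (Wnt11) and chr1:59482147-59486955 (Fzd7).

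Between embryonic day 19.5 and 10 months, most Wnt genes changed in both genotypes. In WT, 24 of 42 tested members fell and 10 rose, and in KO 24 of 41 fell and 11 rose, in edgeR's quasi-likelihood test with Benjamini-Hochberg adjustment over all genes tested (call at an adjusted p under 0.05, as for every adjusted p below). Those that fell include Fzd9, Fzd10 and Rspo2 in both genotypes, which were tested only because they were high in embryos. Wnt6 fell in both as well and passed the filter here only through the embryos, since it did not pass between KO and WT at 10 months. The counts and the medians below include these members. Over all genes, 62.8% were called in WT and 60.5% in KO. Split by direction, 31.6% of all genes rose and 31.2% fell in WT, and 31.1% rose and 29.4% fell in KO. The median log2 fold change of the tested members was -0.76 in WT and -0.66 in KO, against -0.000267 and 0.00297 for all genes tested. The WT and KO comparisons share no library. Of 41 members tested in both, 22 fell in both, 10 rose in both, 2 were called in WT only, 3 in KO only and 4 in neither, and none was called in opposite directions.

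**Figure D2:**
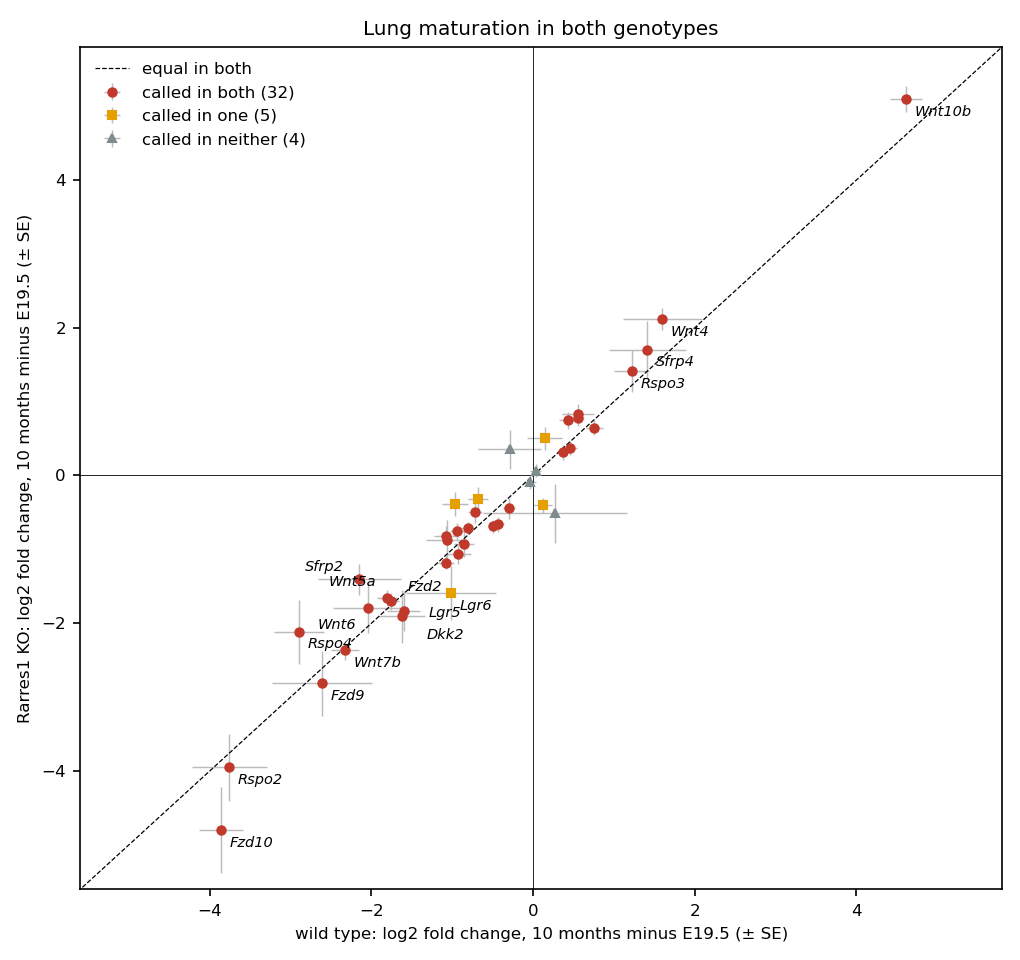
Log2 fold change (10 months minus embryonic day 19.5, ± SE) of the 41 members tested in both genotypes, WT on the x axis and KO on the y axis, with equality dashed. The 32 members called in both lie along the dashed line, from Fzd10 at the lower left to Wnt10b at the upper right.

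Wnt10b, a ligand of the beta-catenin branch, made the widest step of the 34 members called in WT. It was read at 0.55, 0.37 and 0.49 CPM (scaled by trimmed mean of M values, TMM, as for every CPM level of a member) in the 3 WT embryos and at 12.4, 10.2 and 12.5 CPM in WT lungs at 10 months. The KO embryos held 0.47, 0.72 and 0.56 CPM and the KO lungs 18.0, 20.9 and 21.0 CPM. Every adult library was thus far above every embryonic one. The log2 fold change was 4.61 ± 0.20 (SE) in WT (adjusted p = 1.55e-07) and 5.09 ± 0.17 in KO (adjusted p = 3.27e-07), or 24.5-fold and 34.1-fold.

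Wnt4 rose by 1.60 ± 0.48 on the log2 scale in WT (adjusted p = 0.0378) and by 2.11 ± 0.15 in KO (adjusted p = 8.9e-06). Its WT embryos held 4.85, 4.71 and 13.8 CPM, and the high value is that of embryo 3, the library with squamous markers. Without that embryo the WT log2 fold change was 2.30 (adjusted p = 5.0e-07), and leaving out any other library of the comparison ended the WT call. Smaller rises were shared by Wnt11 (0.76 ± 0.11 in WT, 0.65 ± 0.10 in KO), a ligand that acts largely without beta-catenin, and by Wnt9a (0.43 ± 0.11 and 0.74 ± 0.11), Wnt7a (0.55 ± 0.20 and 0.84 ± 0.13) and Wnt3a (0.37 ± 0.08 and 0.31 ± 0.10). The Wnt7a call in WT was lost on leaving out any of 5 of the 6 libraries.

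The ligands of the growing lung went the other way. Wnt5a stood at 51.6, 53.8 and 38.6 CPM in WT embryos and at 13.8, 14.1 and 13.6 CPM at 10 months, and at 48.1, 52.3 and 47.6 against 16.3, 13.2 and 17.0 CPM in KO. The stages did not overlap in either genotype. Its log2 fold change was -1.80 ± 0.12 in WT (adjusted p = 2.18e-06) and -1.66 ± 0.11 in KO (adjusted p = 5.22e-06). Wnt7b went from 28.7, 33.9 and 36.8 CPM in WT embryos to 6.23, 8.32 and 5.36 CPM, and from 32.6, 29.0 and 30.2 to 6.88, 4.95 and 5.83 CPM in KO. This was a log2 fold change of -2.33 ± 0.17 in WT and -2.37 ± 0.13 in KO. An antisense gene, AU022754, overlaps Wnt7b on the other strand, and whether reads were counted by strand is not given in the sources used here, so their reads may be mixed. Wnt2 fell by less, with -0.94 ± 0.09 in WT and -0.76 ± 0.12 in KO, and remained the most abundant ligand. Wnt6 fell from a low level (-2.05 ± 0.42 and -1.80 ± 0.34) and was tested here only through its level in embryos. Wnt5b, which overlaps Fbxl14 on the other strand, fell in WT (-0.96 ± 0.16, adjusted p = 0.000567) and did not pass in KO (-0.39 ± 0.16, adjusted p = 0.0678). The difference between the genotypes, tested as an interaction, was 0.57 ± 0.22 for Wnt5b, with an adjusted p of 0.579.

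Of the 10 Frizzled receptors tested, 6 fell in WT and 7 in KO, and 2 rose in each. Without Fzd9 and Fzd10, 4 of 8 fell in WT and 5 of 8 in KO. Fzd2 was read at 90.7, 100.4 and 87.3 CPM in WT embryos and at 24.5, 31.7 and 26.5 CPM at 10 months. Its KO values were 98.6, 98.7 and 82.6 against 26.1, 26.6 and 32.7 CPM, so that the 2 stages stood clear of each other. The log2 fold changes were -1.76 ± 0.10 in WT (adjusted p = 9.43e-07) and -1.71 ± 0.11 in KO (adjusted p = 6.24e-06). Fzd10 fell from 4.45 to 6.48 CPM in the embryos to at most 0.575 CPM at 10 months (-3.86 ± 0.28 in WT and -4.80 ± 0.58 in KO). Fzd7 (-0.81 ± 0.08 and -0.71 ± 0.08) and Fzd1 (-0.49 ± 0.06 and -0.69 ± 0.09) fell modestly. Fzd4 (0.55 ± 0.08 and 0.78 ± 0.11) and Fzd5 (0.45 ± 0.09 and 0.37 ± 0.09) rose. Fzd6 passed in neither genotype and stayed between 48.5 and 59.8 CPM in the 12 libraries of the 4 groups. Lrp5 fell by 0.30 ± 0.07 on the log2 scale in WT and by 0.45 ± 0.14 in KO.

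Of the 4 R-spondins, 2 fell in each genotype, while 1 rose in WT and 2 in KO. Rspo2, counted among those that fell, was tested only because it was high in embryos, so its fall is no support of its own. Without Rspo2, only Rspo4 fell. Rspo2, a mesenchymal R-spondin required for lung growth and branching, fell from 2.39 to 4.27 CPM in the embryos to at most 0.39 CPM at 10 months (-3.76 ± 0.46 in WT and -3.95 ± 0.45 in KO). Rspo4 fell as well (-2.90 ± 0.31 and -2.12 ± 0.44), while Rspo3 rose (1.22 ± 0.22 and 1.41 ± 0.29). Rspo1 did not pass in WT and rose in KO by 0.51 ± 0.16 (adjusted p = 0.0219). All 3 Lgr receptors fell in KO, and Lgr4 (-0.85 ± 0.12) and Lgr5 (-1.60 ± 0.20) fell in WT. Lgr5 overlaps A930009A15Rik on the other strand.

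Among the secreted inhibitors, 6 of 8 tested fell and 1 rose in each genotype. Sfrp2 (-2.15 ± 0.51 in WT and -1.41 ± 0.20 in KO), Dkk2 (-1.62 ± 0.29 and -1.91 ± 0.36), Notum (-1.08 ± 0.15 and -0.81 ± 0.12), Sfrp1 (-1.07 ± 0.25 and -0.87 ± 0.27), Wif1 (-0.93 ± 0.16 and -1.07 ± 0.13) and Dkk3 (-0.44 ± 0.08 and -0.66 ± 0.10) were lower at 10 months. Sfrp4 was the one that rose, by 1.41 ± 0.48 in WT and 1.70 ± 0.38 in KO. Its WT call was lost on leaving out any of 4 of the 6 libraries. The target gene Axin2 was read at 79.3, 76.2 and 61.3 CPM in WT embryos and at 34.7, 32.6 and 36.3 CPM at 10 months, with KO values of 78.2, 73.3 and 65.3 against 30.2, 30.4 and 34.6 CPM. No adult lung reached the level of any embryo. Its log2 fold change was -1.07 ± 0.10 in WT (adjusted p = 1.41e-05) and -1.18 ± 0.09 in KO (adjusted p = 1.33e-05). Lef1 fell in WT (-0.68 ± 0.12, adjusted p = 0.00101) and was at -0.32 ± 0.15 in KO (adjusted p = 0.107). Some calls rested on single libraries. The KO calls of Rspo1, Fzd8, Lrp5, Sfrp1 and Wnt3a were each lost without KO lung 3 of 10 months. The WT call of Sfrp2 was lost without WT lung 1 of 10 months, the lung with 1357 CPM of heart muscle markers. In a fit over all 23 libraries the WT calls of Fzd4, Wnt9a, Wnt3a and Lrp5 were lost.

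Other genes of the pathway were taken from lists of non-members, which were also set with earlier results of these data known. Beside the list counts below, 31.6% of all genes rose and 31.2% fell in WT. In KO, 31.1% of all genes rose and 29.4% fell. No list was tested as a set. In the list of co-receptors and receptor turnover, 7 of 11 fell and 1 rose in WT, led by Ptk7 (-1.70 ± 0.07) and Ror2 (-2.95 ± 0.13), receptors of the Wnt5a type of signalling, while Tspan12, a partner of Fzd4, rose by 0.93 ± 0.07. The KO counts were 6 and 1. Of the 15 listed genes of cytoplasmic transduction, 7 fell and 1 rose in WT and 6 fell and 2 rose in KO, with Dvl2 at -1.20 ± 0.08 in WT. Of 11 nuclear effectors 7 fell in each genotype, among them Bcl9 (-0.84 ± 0.07 in WT), a beta-catenin cofactor. Of 10 tested genes for other secreted modulators, 7 fell and 2 rose in WT. Apcdd1, a membrane inhibitor, was at -1.72 ± 0.10 and Dkkl1 at 4.09 ± 0.30. Dkkl1 did not pass the filter between KO and WT embryos, so it was tested here only through the adult lungs, where it was high. Its rise, counted here, is no support of its own. Of 12 widely used feedback and target genes, 7 fell and 3 rose in each genotype. The 3 that rose in WT were Nkd2 (1.10 ± 0.10), Cd44 (1.03 ± 0.10) and Ccnd1 (0.76 ± 0.09). Porcn, which attaches the lipid to Wnt proteins, rose by 1.00 ± 0.10 in WT and 0.93 ± 0.13 in KO. In the planar cell polarity list, 3 rose and 3 fell of 10 in each genotype, near the shares of all genes. Prickle2 was at 1.64 ± 0.08 and Vangl2 at -1.82 ± 0.12 in WT.

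Cell type markers moved along with these values. The 8 fibroblast markers summed to 4943 to 7761 CPM in the 6 embryos and 1255 to 1844 CPM in the 6 lungs at 10 months, the 8 alveolar type 1 markers to 3865 to 4482 against 6581 to 7398 CPM, and the 5 club cell markers to 2104 to 3027 against 45010 to 56217 CPM. The 7 endothelial markers summed to 2084 to 2638 CPM in embryos and 3868 to 4456 CPM at 10 months, higher at the later stage as Fzd4 and Tspan12 were. The 7 mitosis markers summed to 195 to 283 CPM in embryos and 26.1 to 42.7 CPM at 10 months. Their part in the result was not tested.

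WT embryo 3 lay outside the range of the other 5 embryos in several members, above it for some and below it for others. The share of all genes outside that range was not computed, so this cannot be read as particular to the members. Wnt10a was read at 2.55 CPM there and at 0 to 0.17 CPM in the other 5 embryos, Wnt4 at 13.8 against 4.65 to 6.52 CPM, Wnt2b at 14.5 against 4.02 to 7.73 CPM, Sfrp2 at 60.7 against 26.1 to 36.7 CPM, Sfrp5 at 1.74 against 0.45 to 0.59 CPM and Wnt6 at 1.99 against 0.80 to 1.01 CPM. Dkk1, Fzd9, Rspo3, Sfrp4 and Wnt7b lay above the other 5 embryos as well. Below them lay Axin2 (61.3 against 65.3 to 79.3 CPM), Wnt5a (38.6 against 47.6 to 53.8 CPM), Wif1 (12.4 against 13.7 to 19.2 CPM), Fzd1, Rspo2, Wnt3a and Wnt9a. In this library the summed fibroblast (7761 CPM), smooth muscle (1570 CPM) and skeletal muscle (331 CPM) markers were high too. Their part in the difference was not tested. Without WT embryo 3, 33 members were called in the WT comparison of stages. The share of all genes called in that fit is not given here.

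The question of what loss of Rarres1 does to the Wnt genes was addressed at each age. At embryonic day 19.5 none of 42 tested members was called, and the background was 0%, with no gene called among 15307. By an unadjusted p under 0.05 there was 1 member, Fzd5 (0.19 ± 0.09), among 144 genes, and DESeq2 and limma called no member. Wnt2 had 56.8, 59.0 and 47.6 CPM in WT and 61.3, 60.7 and 45.7 CPM in KO embryos, and Axin2 was as given above. At 18 months, none of 38 tested members was called between non-tumour KO and WT lung, where 0.0776% of all genes were. There, 4 members and 1243 genes had an unadjusted p under 0.05, and DESeq2 and limma called no member. The smallest adjusted p of a member was that of Lgr6 (-0.88 ± 0.28, adjusted p = 0.408).

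At 10 months 1 of 37 tested members was called, where 1.52% of all genes were. That member was Wnt10b, one of those higher in KO, as 0.574% of all genes were called higher, with the 12.4, 10.2 and 12.5 CPM in WT and the 18.0, 20.9 and 21.0 CPM in KO given above. The 3 KO lungs all lay above the 3 WT lungs. The log2 difference was 0.76 ± 0.11 (adjusted p = 0.0138), or 1.70-fold. The call did not survive without KO lung 3 (adjusted p = 0.0504), in a fit over all 23 libraries (adjusted p = 0.732), with the replicate number as a block (adjusted p = 0.0724) or with limma on log2(FPKM + 0.1) without a filter (adjusted p = 0.0684). At 18 months Wnt10b stood at 10.7, 8.66 and 17.0 CPM in WT and at 11.4, 19.6, 20.1, 14.8 and 21.4 CPM in non-tumour KO lung. These groups overlapped, and the difference of 0.52 ± 0.26 did not pass (adjusted p = 0.656). The genotype difference was not shown to change between ages: the interaction for Wnt10b was -0.24 ± 0.33 from 10 to 18 months (adjusted p = 1.00) and 0.48 ± 0.28 from embryonic day 19.5 to 10 months (adjusted p = 0.775). Over all members the interaction called 0 of 42 (0.156% of all genes) from the embryo to 10 months and 0 of 39 (0% of all genes) from 10 to 18 months, and DESeq2 and limma called none. Unadjusted, 2 members among 1215 genes and 3 among 453 had a p under 0.05.

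Below the threshold at 10 months, Fzd3, a receptor of axon guidance and planar polarity, was lower in all 3 KO lungs (12.2, 11.2 and 13.1 CPM) than in the WT lungs (15.0, 19.1 and 18.2 CPM), at -0.52 ± 0.11 with an adjusted p of 0.058. The values for Wnt9a (0.38 ± 0.10, adjusted p = 0.0993) and Wnt5b (0.60 ± 0.17, adjusted p = 0.121) also missed the threshold. Axin2 had 34.7, 32.6 and 36.3 CPM in WT and 30.2, 30.4 and 34.6 CPM in KO, which overlapped. In all, 7 of 37 members were higher and 1 was lower in KO at 10 months without overlap of the groups, where 12.7% and 12% of all genes were. No gene of the 7 lists of other pathway genes was called between KO and WT at any age.

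Ageing from 10 to 18 months left the members without a call, at 0 of 37 in WT and 0 of 38 in KO non-tumour lung, where 0% of all genes were called in each. Unadjusted p-values under 0.05 were found for 4 members among 833 genes in WT and for 6 members among 782 genes in KO, and DESeq2 and limma called no member. Wnt11, for example, stood at 18.6, 19.01 and 15.8 CPM in WT lung at 10 months and at 17.1, 20.9 and 20.6 CPM at 18 months.

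**Figure D3:**
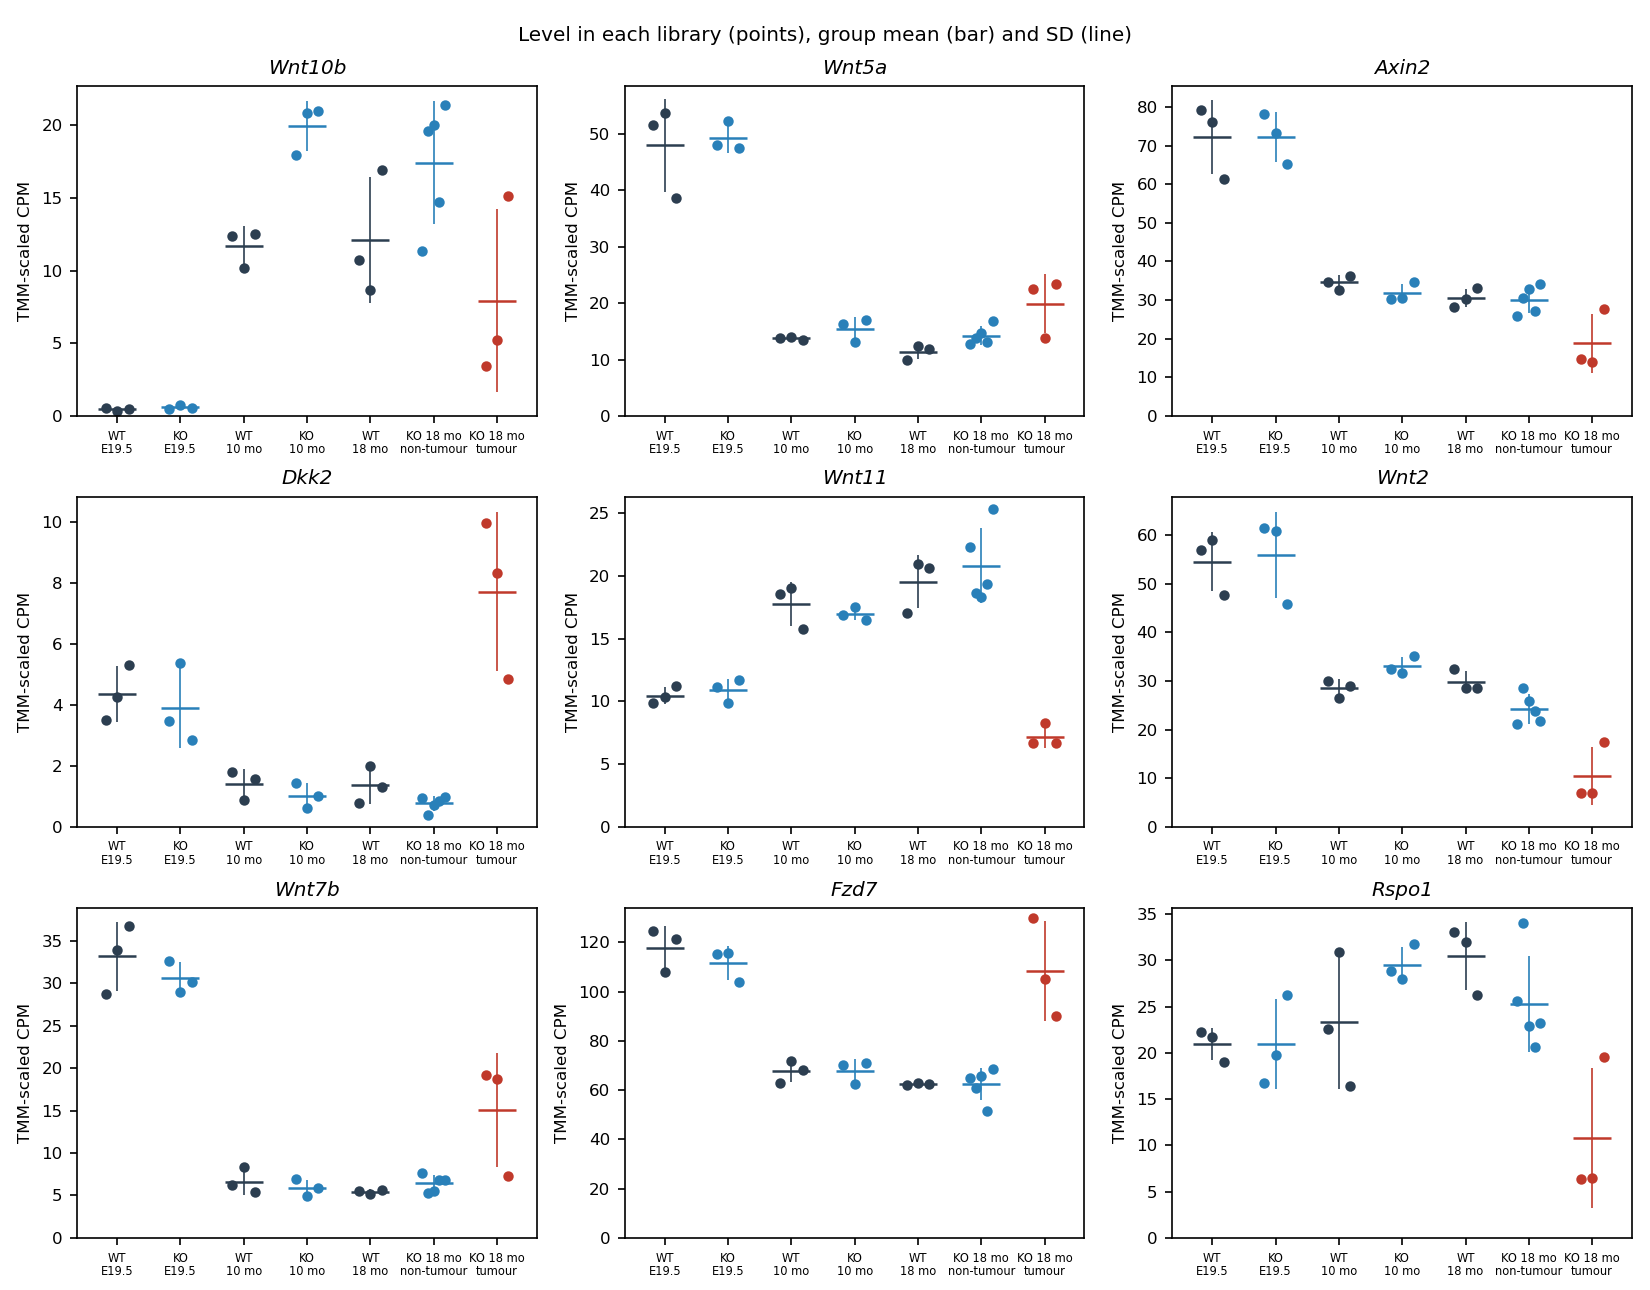
TMM-scaled CPM (y axes, from 0) of 9 members in each of 23 libraries by group (x axis): points are libraries, horizontal bars the group mean and vertical lines the SD, with WT in dark grey, KO lung in blue and tumours in red. Wnt11 is lowest in the 3 tumours. The mean of Dkk2 is highest in tumours, though embryos at 5.31 and 5.38 CPM exceed tumour 6. For Wnt2, Rspo1, Wnt10b, Axin2 and Wnt7b tumour 6 lies nearer to non-tumour lung than tumours 1 and 3 do.

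Lung tumours of KO mice were compared with non-tumour KO lung of the same age. Of 38 tested members 8 were called, where 13.8% of all genes were. Dkk2, Fzd7 and Wnt7b were higher and Wnt11, Wnt3a, Wnt2, Wnt4 and Wif1 were lower in tumours, 3 of 38 and 5 of 38, where 7.2% of all genes rose and 6.6% fell. Without overlap of the groups, 3 members were higher and 6 lower, where 10.6% and 10.5% of all genes were. The median log2 difference of the tested members was -0.56, and that of all genes was -0.01. On the authors' FPKM scale, without TMM scaling, limma called 822 of 2301 genes as higher, against 1113 of 2134 here, and 2 members as higher and 7 as lower. With the code as a block, only Dkk2 and Wnt11 of the members were called, where 0.944% of all genes were.

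Dkk2, a secreted protein that binds Lrp5 and Lrp6, was at 9.96, 8.32 and 4.84 CPM in tumours 1, 3 and 6 and at 0.39 to 0.98 CPM in the 5 KO lungs (median 0.87 CPM). Every tumour was above every lung of any age in the series except that 2 embryos, at 5.31 and 5.38 CPM, exceeded tumour 6. The log2 difference was 3.30 ± 0.33, 9.86-fold, with an adjusted p of 0.00122, and 3.16 ± 0.34 with the code as a block (adjusted p = 0.0476). Within the pairs coded 1, 3 and 6 the log2 ratio of tumour to lung was 3.42, 3.54 and 2.48. Against WT lung of 18 months, at 0.77, 2.00 and 1.31 CPM, the difference was 2.49 ± 0.43 (adjusted p = 0.0174). It held in all 16 alternative fits against KO lung.

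Wnt11 went the other way, with 6.66, 8.24 and 6.70 CPM in the tumours and 18.3 to 25.3 CPM in the KO lungs (median 19.4 CPM). All tumours lay below all lungs, embryonic ones included. The log2 difference was -1.54 ± 0.16 (adjusted p = 0.00138), and -1.48 ± 0.19 with the code as a block (adjusted p = 0.048). The log2 ratios within the pairs were -1.75, -1.15 and -1.53. Against WT lung the difference was -1.45 ± 0.15 (adjusted p = 0.00765). Tumour 6 was as low in Wnt11 as tumour 1.

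Fzd7 had 130.0, 104.9 and 90.0 CPM in tumours and 51.7 to 68.4 CPM in KO lungs (median 64.7 CPM), without overlap, a difference of 0.79 ± 0.14 (adjusted p = 0.00772). With the code as a block its adjusted p was 0.0586. Wnt7b was at 19.1 and 18.7 CPM in tumours 1 and 3 but at 7.33 CPM in tumour 6, inside the 5.34 to 7.63 CPM of the KO lungs. Its difference was 1.23 ± 0.29 (adjusted p = 0.0253). The call was lost in 9 of 16 alternative fits, among them without tumour 1.

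The ligands Wnt3a, Wnt2 and Wnt4 were lower in each tumour than in each KO lung. Wnt3a was at 8.11, 8.52 and 16.3 CPM in tumours and 23.4 to 31.3 CPM in KO lungs (-1.35 ± 0.24, adjusted p = 0.00846), Wnt2 at 6.90, 7.04 and 17.4 against 21.2 to 28.5 CPM (-1.22 ± 0.31, adjusted p = 0.0312), and Wnt4 at 8.48, 10.5 and 18.9 against 21.7 to 32.6 CPM (-1.13 ± 0.26, adjusted p = 0.0229). In each of the 3 the value of tumour 6 was the one nearest to lung. Wif1, a secreted Wnt-binding inhibitor, was at 2.72, 5.76 and 4.53 CPM against 7.17 to 9.89 CPM (-1.08 ± 0.25, adjusted p = 0.0225). With the code as a block none of these 4 was called. Their log2 differences in that fit were -1.42 ± 0.32 (Wnt3a), -1.32 ± 0.31 (Wnt2), -1.14 ± 0.21 (Wnt4) and -1.09 ± 0.31 (Wif1). The Wnt2 call was lost in 8 of 16 alternative fits. Without tumour 1, the calls of Wnt2, Wnt4, Wif1 and Wnt7b were lost, and 4 members were called, where 8.25% of all genes were. The part of the macrophage markers of tumour 1 in these calls was not tested.

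Of the 8 libraries, leaving out tumour 6 moved the count most. Without it 19 of 39 tested members were called, 3 higher and 16 lower, where 25.9% of all genes were called (11.7% higher and 14.3% lower). Named after their values were seen, the members gained included Wnt10b (-2.01 ± 0.31, adjusted p = 0.00224), Rspo1 (-1.98 ± 0.22, adjusted p = 0.000612), Wnt2b (-1.55 ± 0.30, adjusted p = 0.00572) and Axin2 (-1.07 ± 0.15, adjusted p = 0.00147). The fit without tumour 6 was singled out because it moved the count most, so its adjusted p-values are no independent support. With all 3 tumours Axin2 had 14.7, 14.1 and 27.7 CPM against 25.8 to 34.1 CPM in KO lungs, a difference of -0.68 ± 0.23 (adjusted p = 0.0801). Rspo1 had 6.39, 6.44 and 19.6 against 20.6 to 34.1 CPM (-1.23 ± 0.38, adjusted p = 0.0614), and Wnt10b 3.46, 5.24 and 15.1 against 11.4 to 21.4 CPM (-1.14 ± 0.45, adjusted p = 0.124). Tumour 6 alone lay at lung level for Axin2 and Wnt10b. Lef1, at 4.41, 2.56 and 6.89 CPM, overlapped the 4.34 to 9.36 CPM of the KO lungs.

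**Figure D4:**
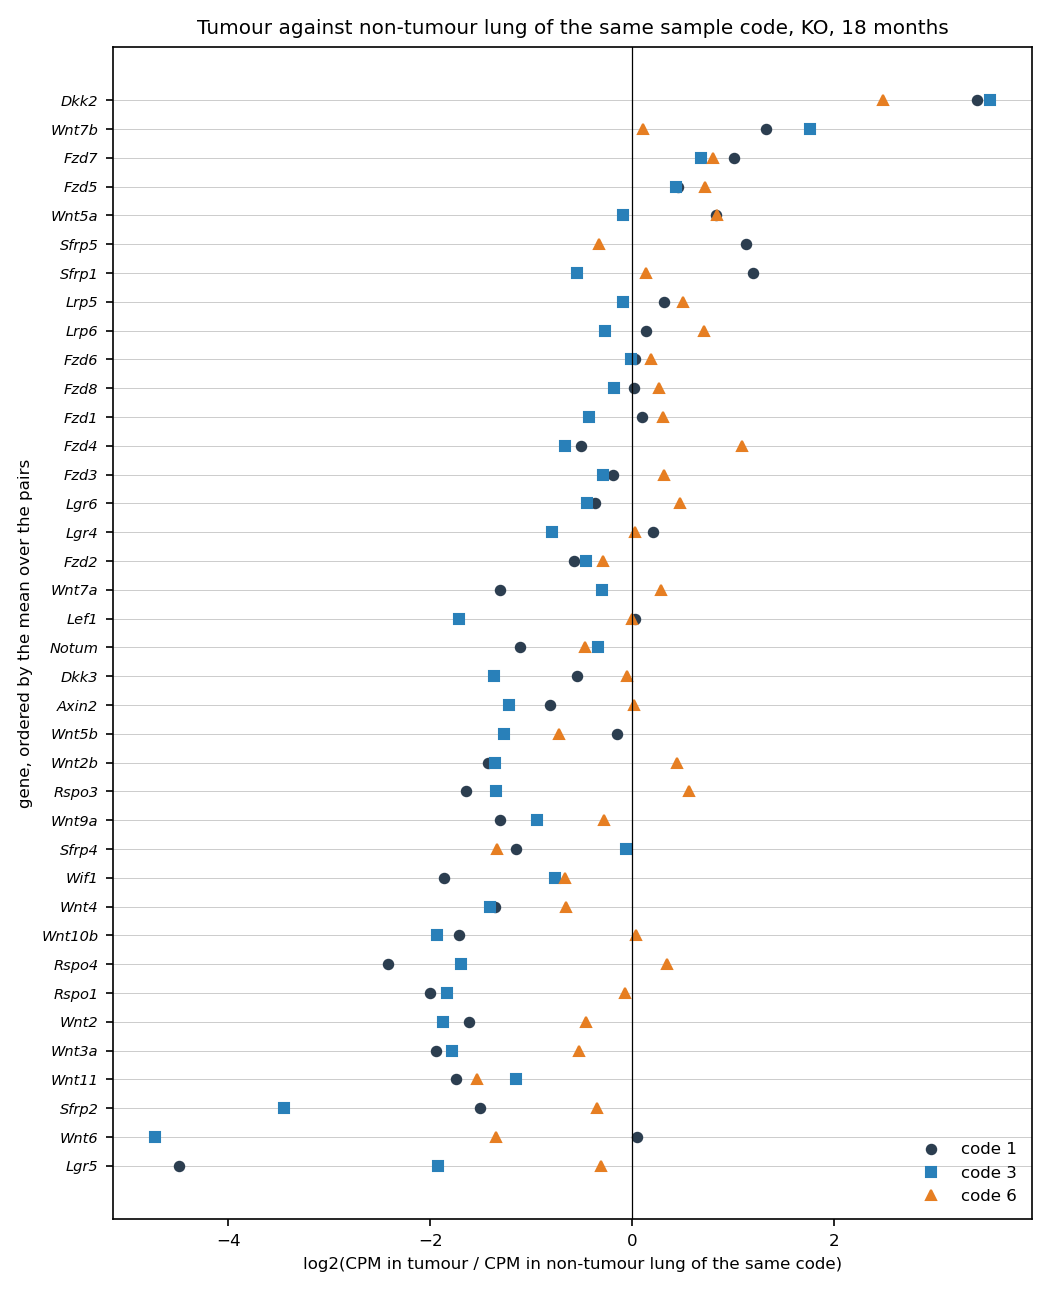
Log2 ratio of CPM in the tumour to CPM in the non-tumour KO lung of the same code (x axis) for 38 members (y axis, ordered by the mean), one symbol per code; Sfrp5 has no point for code 3, where the tumour held no read. Dkk2 and Fzd7 lie to the right in all 3 pairs and Wnt11, Wnt3a, Wnt2 and Wnt4 to the left, and pair 6 is often nearer to 0 than pairs 1 and 3.

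Within the coded pairs, 14 of 38 members were lower in the tumour in all 3 and 4 were higher in all 3 (Dkk2, Fzd5, Fzd7 and Wnt7b). Of all genes, 23.9% were lower and 22.2% were higher in all 3 pairs. The co-receptors and Fzd6 were not called. Lrp5 was at 191, 192 and 236 CPM in tumours and 153 to 204 CPM in KO lungs, Lrp6 at 143, 141 and 196 against 120 to 173 CPM, and Fzd6 at 52.6, 59.5 and 60.4 against 51.5 to 59.8 CPM. The ranges of tumour and lung overlapped for each of the 3.

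Against WT lung at 18 months, a comparison that shares the tumours with the one above, 8 of 37 tested members were called, where 15.4% of all genes were. Higher were Dkk2, Fzd7 (0.79 ± 0.14) and Wnt7b (1.45 ± 0.36), 3 members where 7.87% of all genes rose, and lower were Wnt11, Wnt2 (-1.53 ± 0.38), Wif1 (-1.22 ± 0.32), Wnt3a (-1.16 ± 0.30) and Fzd3 (-0.44 ± 0.11), 5 where 7.5% of all genes fell. This count rests on each WT library: without WT lung 1 it was 1, and without WT lung 2 or 3 it was 0. It was 4 without tumour 1, 5 without tumour 3 and 21 without tumour 6. The share of all genes called in these leave-out fits is not given here, so the counts cannot be read as particular to the members.

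Of the fixed pathway lists, the widely used feedback and target genes had 4 of 11 tested genes higher and 1 lower in tumours than in KO lung, where 7.2% of all genes rose and 6.6% fell. Ccnd1, a cell cycle cyclin, went from 281 to 650 CPM on average (1.21 ± 0.17, adjusted p = 0.00323), Cd44 rose by 0.75 ± 0.19 and Fgf18 fell by 1.04 ± 0.27. Sp5, a direct target of beta-catenin signalling in many tissues, was at 4.60 CPM in lung and 12.7 CPM in tumours on average (1.47 ± 0.39, adjusted p = 0.0371). Myc, another known target, was the fourth to rise (0.86 ± 0.24, adjusted p = 0.0439), and both were named after their values were seen. Of the other secreted modulators 1 of 8 tested was called, Frzb, a relative of the Sfrp inhibitors, from 0.341 to 3.45 CPM on average (3.32 ± 0.57, adjusted p = 0.00723). Celsr1 (1.25 ± 0.22) was the 1 of 10 planar cell polarity genes, Tle4 (-0.77 ± 0.19) the 1 of 11 nuclear effectors and Kremen1 (-0.40 ± 0.10), a Dkk receptor, the 1 of 11 co-receptor genes that were called. In each of these 4 lists the share called is near the 13.8% of all genes called. None of 15 cytoplasmic genes and none of 2 secretion genes was called, of which 4 and 0 had an unadjusted p under 0.05.

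Markers of cell types differed between tumours and lung along with these members. No marker of the lists given here was at 0 throughout a group. The 8 alveolar type 2 markers summed to 76512, 106285 and 47301 CPM in tumours 1, 3 and 6 and to 18576 to 30001 CPM in KO lungs. The 8 smooth muscle and myofibroblast markers summed to 251, 228 and 505 CPM against 572 to 882 CPM, the 6 mesothelial markers to 69.4, 49.4 and 131 against 146 to 389 CPM, the 5 club cell markers to 9914, 14920 and 11390 against 26438 to 50529 CPM, and the 7 macrophage markers to 12727, 2199 and 2150 against 733 to 1892 CPM. The fibroblast markers summed to 1261, 802 and 1519 CPM against 1244 to 1662 CPM, so tumours 1 and 6 lay within the KO lungs. In the smooth muscle, mesothelial, alveolar type 2 and endothelial sums, tumour 6 was the tumour nearest to lung, as it was for Wnt2, Wnt3a, Wnt4, Wnt10b, Rspo1 and Axin2. Some other sums did not follow this order. Tumour 3 was nearest in the club cell, ciliated cell (290, 311 and 246 against 530 to 849 CPM) and alveolar type 1 sums (3261, 4903 and 4579 against 4838 to 7000 CPM). The part of cell composition in the member differences was not tested.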

How the data were processed

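Lung RNA of 23 libraries was sequenced. Per the submitters' processing notes, the authors used Trimmomatic 0.36, STAR 2.5.2b and RSEM 1.3.0 on mm10, and the deposited tables hold expected counts and FPKM per gene, both from the authors. The strand setting is not given in the sources used here. Expected counts were rounded and tested with edgeR 4.0.16 in R 4.3.3 (quasi-likelihood, robust, TMM, filterByExpr, prior count 0.125), with each of 9 comparisons fitted on its 2 groups and 2 interactions on 4, and p-values adjusted by Benjamini-Hochberg over all genes tested. SE is the log2 fold change divided by the root of F. Alternatives used DESeq2 1.42.0, limma 3.58.1 on log2(FPKM + 0.1) or log2(FPKM + 1), other scaling, no filter, all 23 libraries, the replicate block and each library left out. Depth was 23661181 to 46566642 counts per library. Libraries of a group differed beyond sampling noise in all 28 pairs (chi-square per degree of freedom 6.72 to 228). Tumours 1, 3 and 6 share sample codes with 3 non-tumour lungs, so they were also fitted with the code as a block, taken to mark the animal. The title of lung 6 carries another number. Their deviations correlated at 0.453, 0.0149 and 0.0623. Named were all called members of a direction up to 12, otherwise the 12 largest with at least 1 CPM. Other names were chosen after values were seen. The members and lists were chosen with earlier results of these data known. Gene positions are from RefSeq and overlaps between genes from GENCODE, both for GRCm38. Scripts were tested on simulated data. Figures were drawn with matplotlib 3.10.9.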

Additional observations from a re-analysis of the deposited data

Results flagged for a closer look

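Of 38 members tested in the 5 non-tumour KO lungs of 18 months, 5 had 1 lung far from the other 4 by Dixon's test. The nominal rate of this test is about 1 in 20 groups. The share flagged over all genes was not computed, so the count cannot be read as particular to the members. Fzd1 was at 78.6 CPM in lung 3, where the next was 64.0 CPM. Notum was at 14.8 CPM in lung 6, where the next was 9.97 CPM. Wif1 was low in the same lung, at 7.17 CPM against 9.36 CPM for the next. Wnt2b was at 8.14 CPM in lung 2, where the next was 5.56 CPM. Sfrp5 was at 0.747 CPM in lung 7, where the next was 0.389 CPM. No genotype difference between ages passed the interaction test among the members.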

How the results depend on the processing

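At 10 months, between KO and WT, 1 member was called, against 3 by DESeq2, 2 without a filter on low counts, and 0 in the fit over all 23 libraries, with limma on log2(FPKM + 0.1) without a filter and with the replicate block. Leaving out 1 library gave 0 to 2. For tumours against KO lung the count of 8 became 13 by DESeq2, 18 over all 23 libraries and 2 with the replicate block, and 4 to 19 on leaving out 1 library. For tumours against WT it became 14 by DESeq2, 19 over all 23 libraries, 4 with limma on log2(FPKM + 0.1) without a filter and 14 with the replicate block, and 0 to 21 on leaving out 1 library. The cause was not tested. In tumours against KO lung, the share of all genes called moved with the setting too. It was 13.8% in the main fit, 8.25% without tumour 1, 25.9% without tumour 6 and 0.944% with the block. For the other settings and comparisons named above, the share of all genes called is not given here. None of these shifts in count can therefore be read as a result about the members alone. Counts at embryonic day 19.5, at 18 months, for ageing and for both interactions were 0 in every alternative run. The maturation counts stayed within 1.5 times, at 31 to 33 in WT and 30 to 37 in KO on leaving out 1 library. No called member changed direction. Of the tumours, only tumour 1 correlated best with the lung of its own code. Outside the tumour and lung pairs, libraries shared only a replicate number, and the deviations of those with the same number correlated at -0.522 to 0.142. Depth limits members under about 1 CPM, among them the 8 that passed no filter, and with 3 libraries a group small differences may go undetected.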
